A study of Mus musculus with 8 samples.

Results

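The genes described here serve the red pulp macrophage, the splenic phagocyte that clears old erythrocytes, and the recycling of the iron it recovers. They are *Spic*, *Slc40a1*, *Hmox1*, *Cd163*, *Slc11a1*, *Blvrb*, *Tfrc*, *Fth1*, *Trf* and *Adgre1*. They were chosen by name as a pathway and not by a rule on their signal, but with earlier results of these data known. All 10 symbols had probes on the array, out of 15967 named genes, and together they had 13 probes out of 24613. *Slc11a1* had 3 probes, *Adgre1* had 2 and the others had 1 each. For 12 of the 13 probes, some sample type gave a detected signal on each of its 2 arrays, and these were tested. The *Cd163* probe was not.

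The study hybridised RNA from 4 kinds of splenic sample, with 2 arrays each, to find genes of the stroma that depend on the lymphotoxin-β receptor (LTβR). All mice were 8 to 10 weeks old. Fresh WT stroma was the tissue left on a 70 µm mesh after spleens of LTbR+/+ C57BL/6 mice had been rubbed over it and rinsed, and WT splenocytes were the cells that passed through. Fresh LTβR-KO stroma was made in the same way from LTbR-/- mice of the same strain, in which the receptor is missing from every cell. Cultured WT stroma was the adherent fraction of minced LTbR+/+ C57BL/6 spleen, grown in DMEM with 10% FBS to week 3 or 4 and passage 2 or 3. No cell type was sorted in any preparation, so each array reads a mixture. In such bulk samples fewer cells of a type and less RNA per cell cannot be told apart. The files do not settle whether the 2 arrays of a type are separate animals or repeat hybridisations of 1 extract, since the study describes them in both ways. If they are repeats, the p-values below cover technical spread and no spread between animals.

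In the red pulp, macrophages engulf spent erythrocytes and break haem open with haem oxygenase, which frees iron, carbon monoxide and biliverdin. The iron is stored in ferritin or leaves through ferroportin, and transferrin then carries it to erythroid precursors, which take it up through the transferrin receptor. The transcription factor SpiC is required for this macrophage to develop in mice, and haem induces its gene.

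The arrays were alike in depth of detection, with 9900 to 11283 probes detected (detection p under 0.05) on each. The preparations carried the marker genes that their names call for in part. Of the tested endothelial genes 10 of 11, and of the smooth muscle genes 6 of 6, were higher in fresh WT stroma than in splenocytes, while all 11 tested T and NK cell genes were lower. In cultured stroma, all 11 endothelial genes and 14 of 15 erythroid genes were lower than in fresh WT stroma. All 6 smooth muscle genes were lower there too. Of 12 fibroblast genes 5 were higher, among them *Lum*, detected on the cultured arrays alone, and 4 were lower. The single *Ltbr* probe read 6.44 and 6.80 on the log2 scale in fresh WT stroma and 6.82 and 7.18 in stroma labelled LTβR-KO. The position of that probe is not given, and it may target sequence that the knock-out keeps, so its signal does not check the genotype.

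Signals are given as log2 values after background correction and quantile normalization, so that 1 unit is a doubling. Each value belongs to 1 probe, and levels of different probes are not compared. "Called" means an adjusted p under 0.05 in limma's test over all 12389 tested probes.

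**Figure D1:**
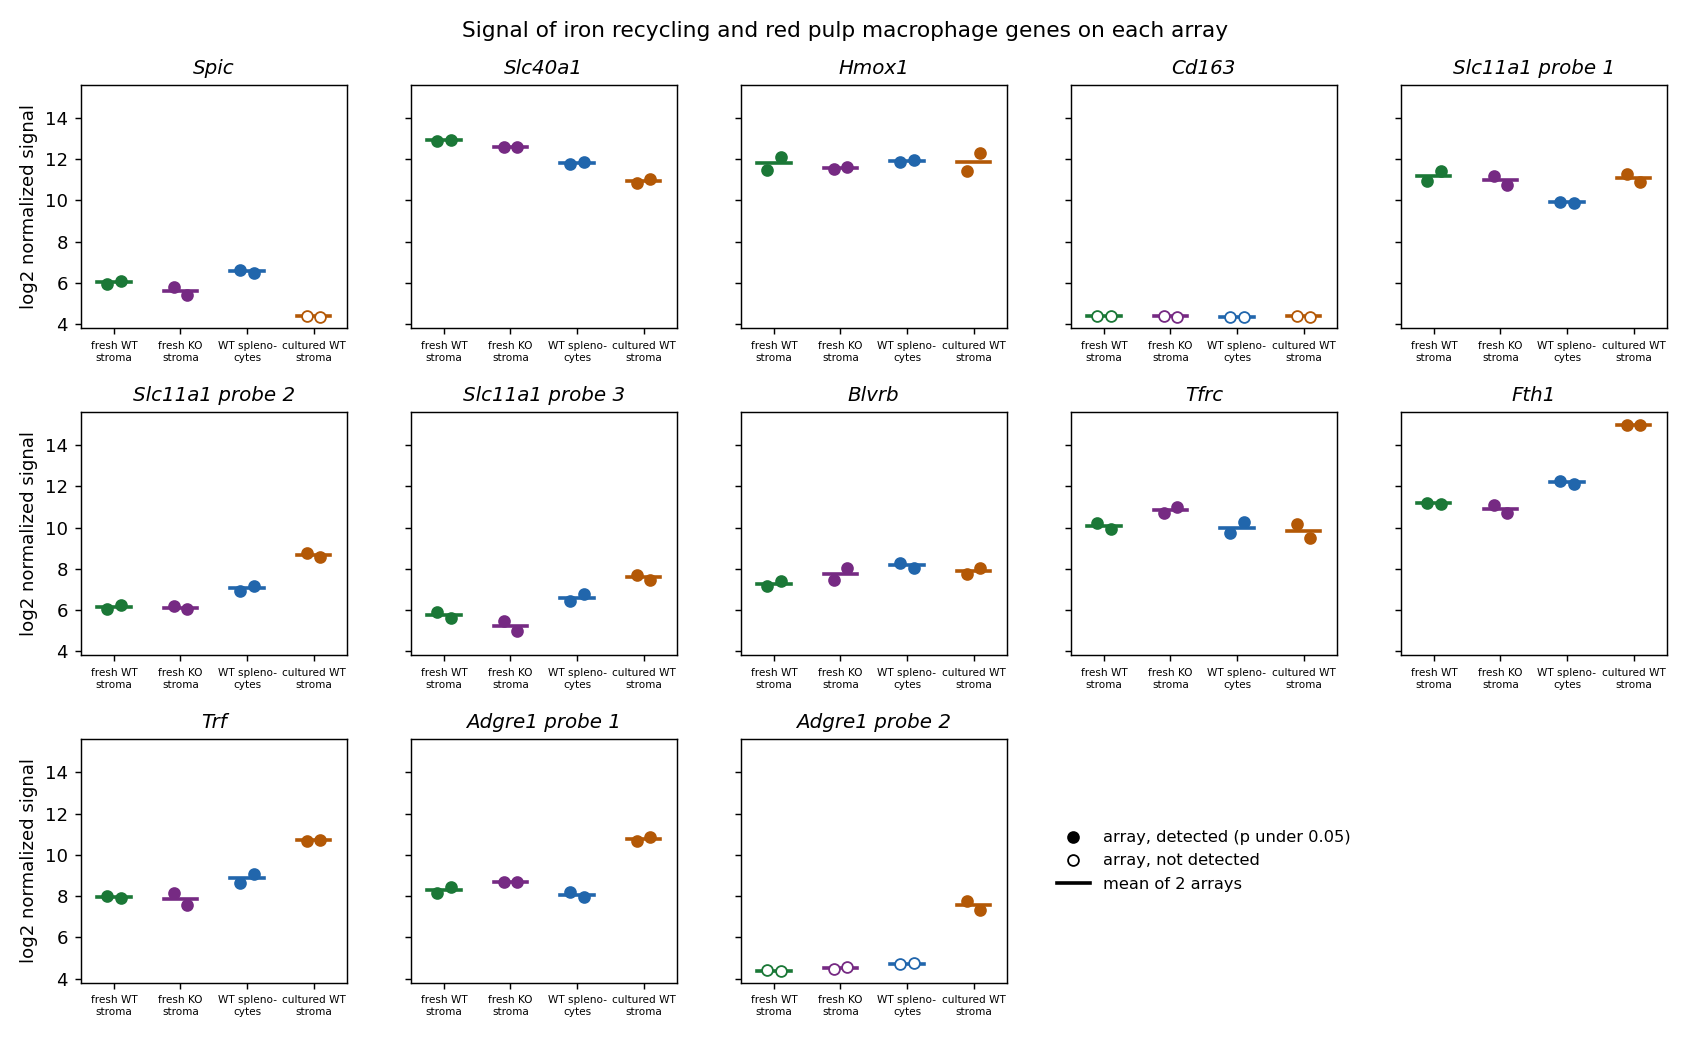
Normalized log2 signal (y axis) of each of the 13 probes on each of the 8 arrays, by sample type (x axis); filled points were detected, open points were not, and bars are means of 2 arrays. *Fth1*, *Trf*, *Adgre1* and *Slc11a1* probes 2 and 3 lie highest in cultured stroma, *Spic* is undetected there, and *Slc40a1* lies highest in fresh WT stroma.

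The widest change among these genes came with culture. The gene for the ferritin heavy chain, *Fth1*, became the brightest probe on the array, and *Trf* and *Adgre1* also rose, whereas *Spic* was no longer detected and *Slc40a1* fell. *Fth1* encodes the ferroxidase subunit of the ferritin shell, in which cells hold iron. Its signal was 11.18 and 11.16 in fresh WT stroma, 11.11 and 10.69 in fresh LTβR-KO stroma, 12.27 and 12.14 in splenocytes, and 14.96 and 14.96 in cultured stroma. The 2 cultured arrays share a value because *Fth1* ranked 1 from the top on both and quantile normalization gives that rank a fixed value. Before normalization its bead signal was 37780 and 34974 in culture against 1499 and 1895 in fresh WT stroma, where it ranked 298 and 306. The normalized difference was 3.79 (SE 0.16), a fold of 13.9, with an adjusted p of 1.72e-08. Ferritin heavy chain has many near-identical processed copies in the mouse genome, and their share in this probe's signal was not tested.

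*Trf*, which encodes transferrin, followed the same order of sample types. Its signal was 8.01 and 7.89 in fresh WT stroma, 8.16 and 7.56 in fresh LTβR-KO stroma, 8.63 and 9.09 in splenocytes, and 10.68 and 10.73 in cultured stroma. The cultured arrays were above all others, and the 2 kinds of fresh stroma overlapped. Culture raised *Trf* by 2.76 (SE 0.21) over fresh WT stroma, a fold of 6.76, with an adjusted p of 1.29e-06. Across the 8 arrays *Fth1* and *Trf* correlated at r = 0.989, a description that rests mainly on the gap between the cultured and the other arrays.

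*Adgre1* encodes F4/80, the surface protein by which mouse macrophages are usually recognised, and its 2 probes both rose in culture. The first read 8.12 and 8.42 in fresh WT stroma, 8.70 and 8.66 in fresh LTβR-KO stroma, 8.18 and 7.95 in splenocytes, and 10.68 and 10.86 in cultured stroma. The second was detected on the cultured arrays alone, at 7.77 and 7.33, and it entered the test only through them. The cultured difference from fresh WT stroma was 2.50 (SE 0.16) for the first probe, a fold of 5.66, with an adjusted p of 2.92e-07. For the second it was at least 6.63-fold, counted against the dimmest detected signal of each array, with an adjusted p of 6.73e-08.

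*Spic* went the other way. It was dim but detected on the fresh arrays, at 5.96 and 6.11 in WT stroma, 5.79 and 5.42 in LTβR-KO stroma, and 6.64 and 6.49 in splenocytes. On the cultured arrays it was not detected (detection p of 0.674 and 0.751). It was thus at least 2.08-fold lower in culture than in fresh WT stroma (adjusted p = 6.5e-06) and at least 3.00-fold lower than in splenocytes (adjusted p = 7.47e-07). *Spic* and the first *Adgre1* probe correlated at r = -0.952 over the 8 arrays, again given as a description of groups that stand apart. The cultured arrays thus carried a general macrophage marker at a raised level while the red pulp regulator was undetected.

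*Slc40a1* encodes ferroportin, the iron exporter of the macrophage. It was among the brightest probes of fresh stroma, ranking 66 and 64 in WT stroma, and read 12.90 and 12.92 there. It read 12.57 and 12.58 in fresh LTβR-KO stroma, 11.75 and 11.86 in splenocytes, and 10.83 and 11.04 in cultured stroma. After normalization the 4 sample types did not overlap, although the difference between WT and LTβR-KO stroma did not pass the test. Before it, LTβR-KO stroma, splenocytes and cultured stroma overlapped, with bead signals of 3748 and 3095, 3434 and 3667.5, and 2972 and 3945. The fall in culture was -1.97 (SE 0.14) on the log2 scale, a fold of 3.92, with an adjusted p of 6.61e-07. Its size depended on the scaling, since the bright end of the cultured arrays was brighter before normalization. The 99th percentile of the bead signal was 1.27 log2 units higher in culture than in fresh WT stroma, while the 50th was 0.164 higher. With each array scaled to its 75th percentile the fall was -0.87 and kept its call, and with no normalization it was -0.46 and lost it (adjusted p = 0.0612). *Slc40a1* and *Fth1* correlated at r = -0.947 over the 8 arrays after normalization, given as a description of groups that stand apart.

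*Slc11a1* encodes the metal transporter NRAMP1 of the phagosome membrane, which moves iron out of the engulfed load. Its 3 probes disagreed. The brightest read 10.93 and 11.41 in fresh WT stroma, 11.21 and 10.74 in fresh LTβR-KO stroma, 9.94 and 9.88 in splenocytes, and 11.29 and 10.88 in cultured stroma. It was lowest in splenocytes, and the 3 kinds of stroma overlapped. Probe 2 read 6.07 and 6.26 in fresh WT stroma, 6.19 and 6.05 in fresh LTβR-KO stroma, 6.95 and 7.17 in splenocytes, and 8.77 and 8.58 in cultured stroma. Probe 3 read 5.92 and 5.63, 5.48 and 5.01, 6.43 and 6.78, and 7.71 and 7.47 in the same order. For these 2 probes splenocytes were above fresh stroma and cultured stroma above both. Culture raised probe 2 by 2.51 (SE 0.16, adjusted p = 2.3e-07) and probe 3 by 1.82 (SE 0.20, adjusted p = 1.83e-05), but the brightest probe differed by -0.083 (95% interval -0.57 to 0.40). With scaling to the 75th percentile the brightest probe differed by 0.79 and was called higher in culture (adjusted p = 0.00561). The positions of the probes in the transcript are not given in the files used here, and a direction for the gene as a whole is therefore not stated.

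Of the enzymes of haem breakdown, *Hmox1* was called in no comparison with quantile normalization and *Blvrb* in 2 of the main 3. *Hmox1* encodes haem oxygenase 1, the inducible enzyme that opens the haem ring. It read 11.50 and 12.10 in fresh WT stroma, 11.52 and 11.63 in fresh LTβR-KO stroma, 11.86 and 11.98 in splenocytes, and 11.42 and 12.30 in cultured stroma. The 2 cultured arrays enclosed the values of all others, and no comparison called the gene with quantile normalization. The cultured difference was 0.060 (95% interval -0.54 to 0.66). Before normalization the bead signal was 1833 and 3496 in fresh WT stroma and 4584 and 8886 in culture, and with scaling to the 75th percentile the difference was 0.94 and was called (adjusted p = 0.00149). Whether *Hmox1* rose in culture thus depends on the scaling.

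*Blvrb* encodes biliverdin reductase B, an enzyme that is also abundant in erythrocytes. It read 7.15 and 7.40 in fresh WT stroma, 7.45 and 8.06 in fresh LTβR-KO stroma, 8.30 and 8.03 in splenocytes, and 7.77 and 8.03 in cultured stroma. Fresh WT stroma was the lowest sample type. The cultured difference from it was 0.62 (SE 0.21, adjusted p = 0.0254), and it lost its call under 4 of 18 alternatives. These were the fits without fresh WT replicate 1 (0.50, adjusted p = 0.131), without cultured replicate 2 (0.49, adjusted p = 0.152), on the authors' cubic-spline values (0.64, adjusted p = 0.055) and with no detection filter (0.62, adjusted p = 0.088). Leaving out 1 array leaves its type with a lone array, which is assumed to vary like the other types wherever such a fit is given.

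*Cd163*, the scavenger receptor for haemoglobin bound to haptoglobin, was detected on none of the 8 arrays (detection p of 0.591 to 0.836), and no level is given for it. *Tfrc* encodes the transferrin receptor, the importer of erythroid precursors and of dividing cells. It read 10.20 and 9.95 in fresh WT stroma, 10.69 and 10.99 in fresh LTβR-KO stroma, 9.72 and 10.27 in splenocytes, and 10.18 and 9.51 in cultured stroma. After normalization fresh LTβR-KO stroma was above every other array, and the remaining 3 types overlapped. Before it, the bead signal was 1037 and 1037 in LTβR-KO stroma, 832 and 936 in WT stroma, 866 and 1297 in splenocytes, and 1788 and 1300 in culture, so that LTβR-KO stroma did not lead. The cultured difference from fresh WT stroma was -0.23 (95% interval -0.78 to 0.32).

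**Figure D2:**
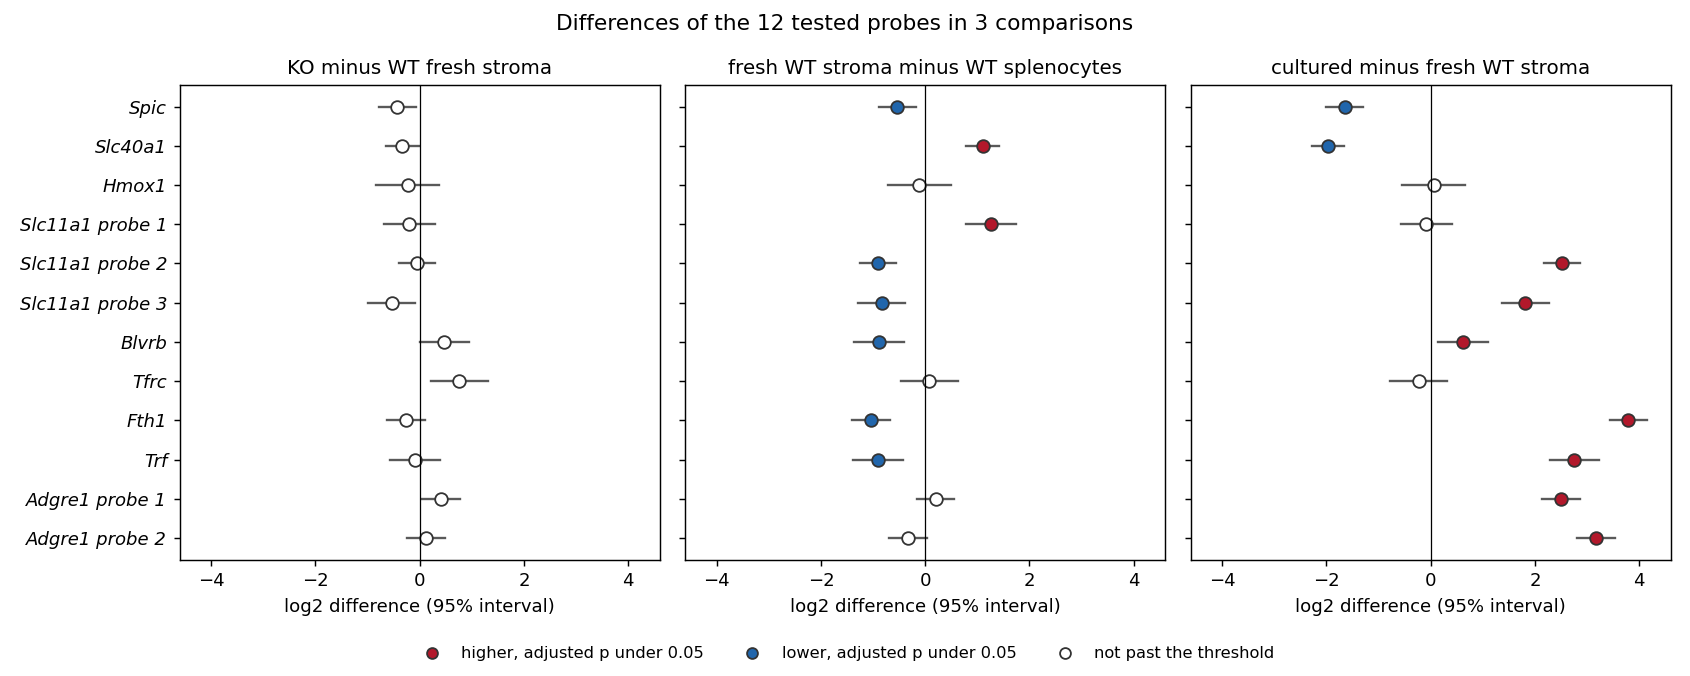
Log2 difference (x axis) of the 12 tested probes with 95% intervals in 3 comparisons; red points were called higher, blue points called lower, and open points were not called. No probe was called between the genotypes, 8 were called between fresh WT stroma and splenocytes, and 9 between cultured and fresh WT stroma.

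Counted over the 12 tested probes, 7 were higher and 2 lower in cultured than in fresh WT stroma. The second *Adgre1* probe, counted among the 7 higher, had passed the detection filter through the cultured arrays alone. Culture changed most of the array, with 64.7% of all tested probes called, 33.8% higher and 30.9% lower. A count of 9 of 12 is therefore close to the share over all probes. The median difference of the 12 was 1.22, against -0.022 for all tested probes, and their arrays did not overlap for 9, against 82.4% of all probes. With scaling to the 75th percentile 11 were called, 9 of them higher.

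**Figure D3:**
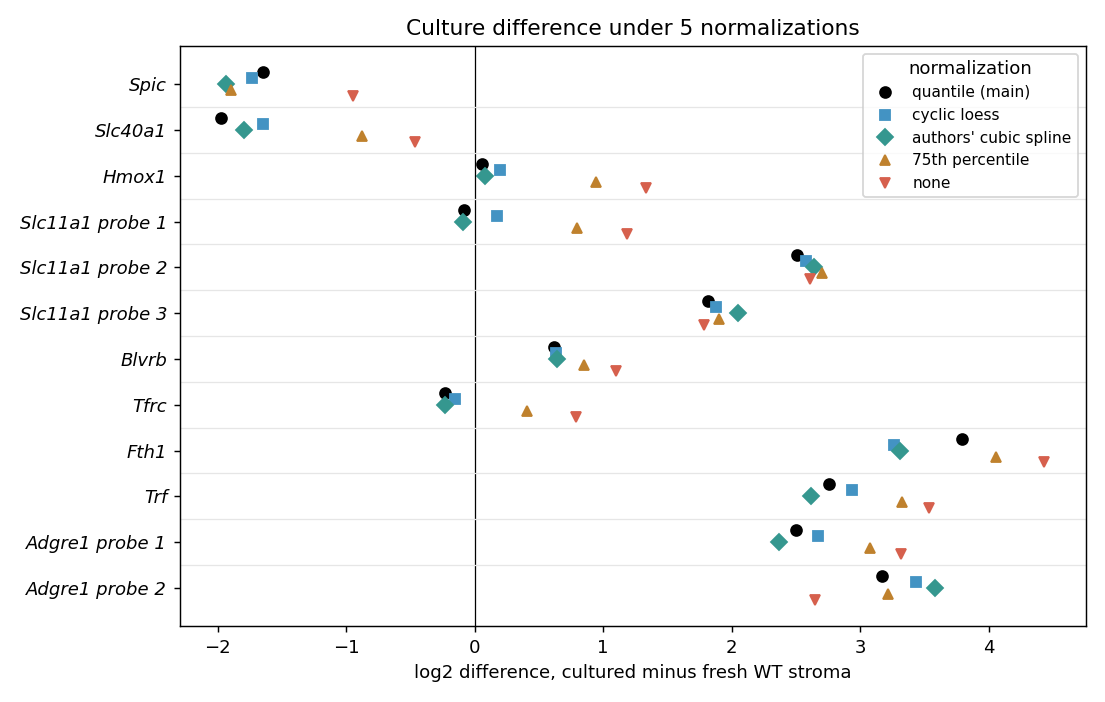
Log2 difference between cultured and fresh WT stroma (x axis) of the 12 tested probes under 5 ways of normalizing the arrays. *Fth1*, *Trf*, *Adgre1* and *Slc11a1* probes 2 and 3 lie far to the right of 0 and *Spic* to the left under each, whereas *Hmox1*, *Tfrc* and the brightest *Slc11a1* probe move from near or below 0 to positive values.

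The regulatory sequence near the starts of these genes is shown for 3 that moved apart in culture, *Spic* (lower), *Slc11a1* (probes 2 and 3 higher) and *Fth1* (higher). RefSeq promoters of the mouse assembly GRCm38.p6 were held for 6 of the 10 genes, with 9 windows among them, and the 250 bases before each start were read. They were searched on both strands for GAGGAA, the core of the PU box that the SpiC and PU.1 family binds, for TGACNNNGC, the core of the element bound by NRF2 and by the haem sensor BACH1, and for CCAAT. Capitals mark a match to any of the 3 motifs on either strand. The *Spic* window is chr10:88683024-88683273 on the minus strand, the *Slc11a1* window chr1:74374953-74375202 on the plus strand, and the *Fth1* window, the downstream one of a pair, chr19:9982396-9982645 on the plus strand.
Spic: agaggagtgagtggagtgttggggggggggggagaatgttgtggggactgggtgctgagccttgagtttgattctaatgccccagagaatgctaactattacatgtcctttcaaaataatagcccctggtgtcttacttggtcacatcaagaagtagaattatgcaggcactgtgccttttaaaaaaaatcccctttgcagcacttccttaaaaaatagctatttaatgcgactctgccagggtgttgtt
Slc11a1: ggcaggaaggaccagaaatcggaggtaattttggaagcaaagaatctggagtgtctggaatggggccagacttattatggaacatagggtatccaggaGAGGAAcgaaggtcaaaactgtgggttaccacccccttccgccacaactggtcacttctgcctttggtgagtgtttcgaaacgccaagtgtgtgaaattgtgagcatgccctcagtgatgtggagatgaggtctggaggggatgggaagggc
Fth1: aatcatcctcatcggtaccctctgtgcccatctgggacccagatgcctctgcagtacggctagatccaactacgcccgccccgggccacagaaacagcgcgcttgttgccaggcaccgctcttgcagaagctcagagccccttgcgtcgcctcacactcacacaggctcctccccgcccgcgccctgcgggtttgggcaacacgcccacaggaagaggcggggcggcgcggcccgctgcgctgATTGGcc
The *Slc11a1* window held GAGGAA on the plus strand, the only one of the 9 windows to do so, and 23.3% of all 32851 promoter windows hold it. The *Fth1* window held CCAAT on the minus strand (read here as ATTGG), as did 1 window each of *Cd163* and *Tfrc* on one strand or the other, and 33.8% of all windows hold it. TGACNNNGC was in none of the 9 and is in 10.2% of all. The *Spic* window held none of the 3 motifs. These are matches of letters and not measured sites.

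The comparison of fresh WT stroma with splenocytes asks on which side of the mesh these transcripts lay. *Slc40a1* and the brightest *Slc11a1* probe were higher in stroma, and *Fth1*, *Trf*, *Blvrb*, *Spic* and *Slc11a1* probes 2 and 3 were lower. The *Slc40a1* signal was 1.101 higher in stroma (SE 0.14, a fold of 2.15, adjusted p = 7.21e-05; 0.41 and not called with no normalization, adjusted p = 0.113), and the brightest *Slc11a1* probe 1.26 higher (SE 0.22, adjusted p = 0.000601). *Slc11a1* probes 2 and 3 went the opposite way, at -0.90 (adjusted p = 0.000615) and -0.83 (adjusted p = 0.00513). Of the storage and transport genes, *Fth1* was lower in stroma by a log2 difference of -1.03 (SE 0.16, adjusted p = 0.000323) and *Trf* by -0.91 (SE 0.21, adjusted p = 0.00427). The ferritin light chain gene *Ftl1* went the other way from *Fth1*, 0.42 higher in stroma (adjusted p = 0.0255). *Blvrb* was also lower, at -0.89 (SE 0.21, adjusted p = 0.00471). *Spic*, too, was lower in stroma, at -0.53 (SE 0.16, adjusted p = 0.0159), and the regulator therefore differed in direction from *Slc40a1*. *Spic* lost its call without fresh WT replicate 1 (-0.46, adjusted p = 0.0925), without splenocyte replicate 1 (-0.45, adjusted p = 0.105) and with cyclic loess (-0.42, adjusted p = 0.0575), and *Trf* and *Slc11a1* probe 3 without splenocyte replicate 2 (adjusted p of 0.054 and 0.0588).

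*Hmox1*, *Tfrc* and both *Adgre1* probes were not called between stroma and splenocytes. Their differences were -0.12 for *Hmox1* (95% interval -0.72 to 0.49), 0.080 for *Tfrc* (-0.47 to 0.63) and 0.21 for the first *Adgre1* probe (-0.15 to 0.56). In all, 2 of the 12 tested probes were higher and 6 lower in stroma, where 55.8% of all probes were called, 24.2% higher and 31.6% lower. The median over the 12 was -0.43, against -0.092 over all, and the arrays did not overlap for 9, against 78.5% of all probes. Erythroid genes, which splenocytes and stroma both carried, were split in this comparison. Of the 15 tested, 4 were higher in stroma and 5 lower. Their summed signal was 48952 and 50022 in fresh WT stroma and 45424 and 45909 in splenocytes. *Hba-a1* read 14.96 in both types, the fixed value of the top rank, so much of each sum was set by the normalization. Of 11 tested proliferation genes, 9 were lower in stroma and none higher. The part of either cell state in the members' differences was not tested.

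The genotype comparison asks whether these transcripts depend on LTβR in fresh stroma. No member probe was called by limma between the arrays labelled LTβR-KO and WT, where 12.5% of all tested probes were called, 5.31% higher and 7.18% lower. At an unadjusted p under 0.05 the count was 6 of 12, against 26.6% of all probes. Those 6 were *Tfrc*, *Blvrb* and the first *Adgre1* probe, which read higher in LTβR-KO stroma, and *Spic*, *Slc40a1* and *Slc11a1* probe 3, which read lower. The arrays of the 2 genotypes did not overlap for 8 of the 12 probes, and did not for 52.1% of all probes.

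*Tfrc* had the lowest p of the set, with a difference of 0.76 (SE 0.25, 95% interval 0.21 to 1.31, adjusted p = 0.0717). With no normalization the difference was 0.23, or 0.37 relative to the median of all probes. The iron exporter *Slc40a1* differed by -0.33 (SE 0.14, 95% interval -0.65 to -0.022, adjusted p = 0.159). The regulator *Spic* differed by -0.43 (SE 0.16, 95% interval -0.78 to -0.072, adjusted p = 0.115). The intervals allow a change of *Slc40a1* between these arrays of no more than 0.65 log2 units and leave those of *Spic* and *Tfrc* wider. If the arrays of a type are repeats of the same extract, the intervals do not bound a change between animals. *Hmox1* differed by -0.22 (95% interval -0.83 to 0.38) and *Fth1* by -0.26 (-0.63 to 0.097). *Blvrb* differed by 0.47 (0.0017 to 0.95), and the first *Adgre1* probe by 0.41 (0.053 to 0.76). With no normalization these differences were 0.089 and 0.0093, or 0.23 and 0.15 relative to the median of all probes. The bead signals of the genotypes overlapped for both probes. A single library weighed on the count. Without LTβR-KO replicate 1, 3 probes were called, namely *Blvrb* (0.78 higher, adjusted p = 0.0389), *Slc11a1* probe 3 (-0.77, adjusted p = 0.0488) and *Spic* (-0.61, adjusted p = 0.0491).

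Other cell types differed between these genotypes. Of 15 tested erythroid genes 6 were higher in LTβR-KO stroma and none lower, with *Car1* (1.32), *Kel* (0.94) and *Rhd* (0.91) leading. The summed erythroid signal was 53373 and 52356 in LTβR-KO stroma against 48952 and 50022 in WT. Here too *Hba-a1* held the fixed value of the top rank (14.96) in both, which set much of each sum. Of the leukocyte genes, 6 of 9 tested B cell genes, 8 of 11 T and NK cell genes and 10 of 14 granulocyte and monocyte genes were higher and none lower. Of 11 proliferation genes 1 was higher, and no proliferation gene was lower. Of the stromal genes, 7 of 11 endothelial genes (median -0.73) and 4 of 6 smooth muscle genes (median -1.095) were lower and none higher, and of 12 fibroblast genes 3 were higher and 1 lower. With no normalization, where the median of all probes was -0.14, the genes called higher were 1 erythroid, 1 B cell, 2 T and NK cell and 6 granulocyte and monocyte genes. The part of these cells in the readings of *Tfrc*, *Blvrb* and the other members was not tested.

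Against splenocytes, the stroma labelled LTβR-KO gave 4 higher and 5 lower calls among the 12 (47.7% of all probes called, 21% higher and 26.7% lower). Its calls differed from those of WT stroma in *Tfrc*, which was 0.84 higher than in splenocytes (SE 0.25, adjusted p = 0.0166), in the first *Adgre1* probe, 0.61 higher (SE 0.16, adjusted p = 0.00917), and in *Blvrb*, which was not called (-0.41, adjusted p = 0.14). Both comparisons share the splenocyte arrays. With scaling to the 75th percentile the split was 1 higher and 7 lower. Cultured stroma gave 7 higher and 2 lower calls against splenocytes (59.1% of all probes called, 29.4% higher and 29.8% lower). Against LTβR-KO stroma it gave 6 higher and 3 lower calls (64.6% called, 33.9% higher and 30.7% lower). The third lower one was *Tfrc* at -0.99 (SE 0.25, adjusted p = 0.00481). Before normalization its direction was the opposite, with a bead signal of 1788 and 1300 in culture against 1037 and 1037 in LTβR-KO stroma. The higher calls of cultured stroma against splenocytes and against LTβR-KO stroma both included the second *Adgre1* probe. That probe had passed the detection filter through the cultured arrays alone.

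The order of the sample types after quantile normalization can be read from these tests. For *Fth1* and *Trf* it ran from cultured stroma through splenocytes to fresh stroma, and the 2 fresh stromas at the end did not differ beyond their spread. For *Slc40a1* it ran from fresh WT stroma through LTβR-KO stroma and splenocytes to cultured stroma, and only the first step was not called. For *Spic* it ran from splenocytes through fresh WT and LTβR-KO stroma to cultured stroma, and again the step between the genotypes was not called. For *Tfrc*, LTβR-KO stroma led, its step to fresh WT stroma was not called, and WT stroma, splenocytes and cultured stroma did not differ beyond their spread. For *Hmox1* no neighbours differed beyond their spread.

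**Figure D4:**
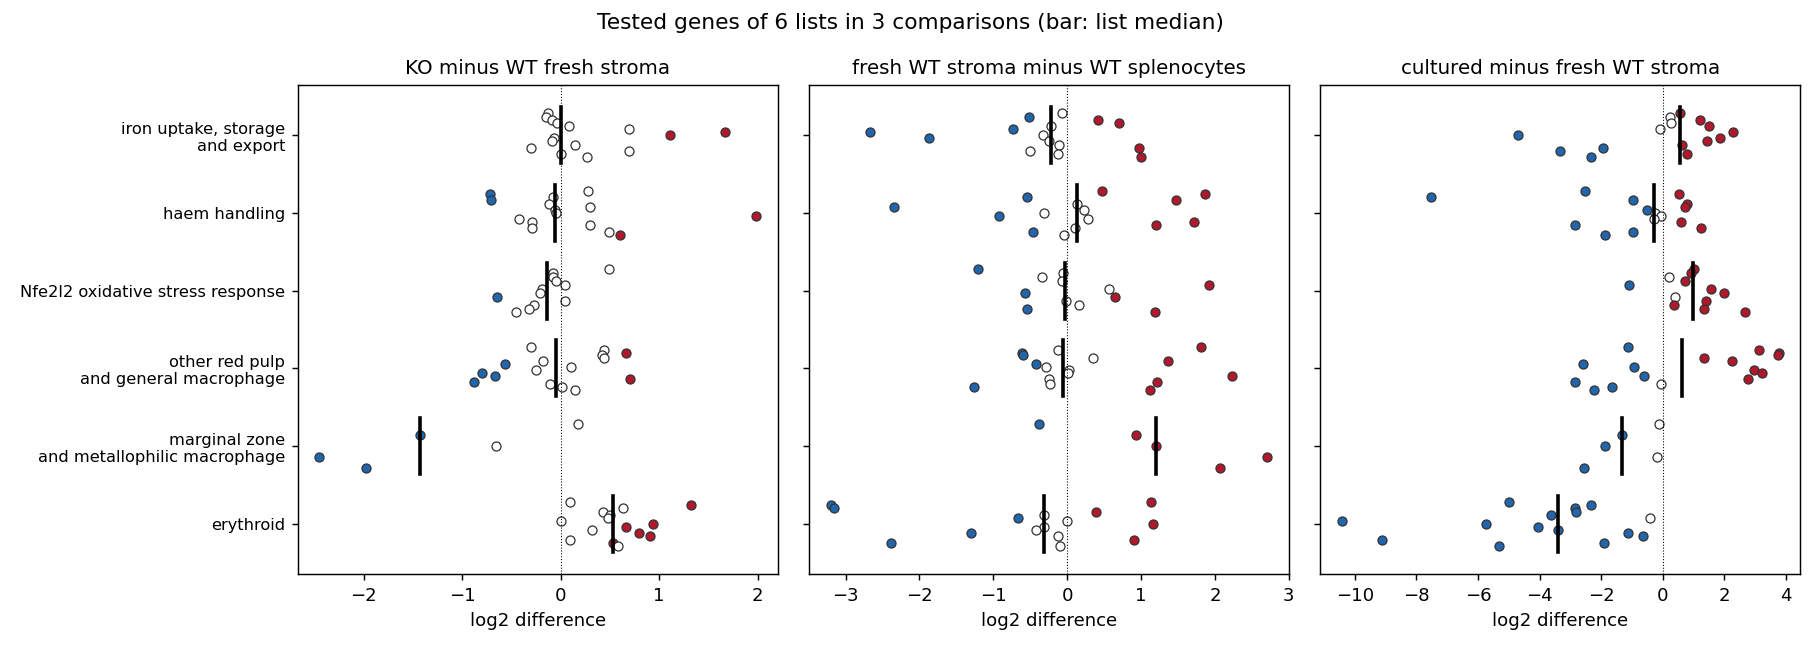
Log2 difference (x axis) of each tested gene of 6 gene lists (y axis) in 3 comparisons, without the 10 genes above; red points were called higher, blue lower, open not called, and the bar is the list's median. Erythroid genes lie mostly far below 0 in culture, marginal zone macrophage genes below 0 in LTβR-KO stroma, and genes of the oxidative stress response above 0 in culture.

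Other genes of the same pathways gave the surroundings of these changes. In culture, where 33.8% of all probes rose and 30.9% fell, 8 of 15 tested genes of iron uptake, storage and export rose and 4 fell, with a median of 0.56. *Slc39a8* and *Aco1*, counted among the 8, had passed the detection filter through the cultured arrays alone. *Lcn2*, whose product lipocalin 2 binds iron-laden siderophores, rose by 2.29, the iron chaperone gene *Pcbp1* by 1.88 and *Hfe*, the haemochromatosis gene, by 1.52. *Ftl1*, the light chain partner of *Fth1*, rose by 1.21 (adjusted p = 2.17e-05). Lactoferrin (*Ltf*) was at least 19.0-fold lower, the mitochondrial iron importer gene of erythroid cells, *Slc25a37*, was at -3.33, and *Tfr2*, a second transferrin receptor, was at least 3.49-fold lower. Of 15 tested haem genes, 5 rose and 7 fell, with a median of -0.27, and 4 fell with no normalization. Those that rose included *Slc48a1*, which moves haem out of the phagolysosome (1.25), *Blvra*, the main biliverdin reductase gene (0.81), and *Fech*, whose product inserts iron into the haem ring (0.74). Those that fell were led by haem synthesis genes, *Alas2* (at least 138-fold), *Ppox* (-2.83) and *Alad* (-2.53). The erythroid list fell with them, its summed signal being 156 and 147 in culture, and its share in the fall of haem synthesis genes was not tested.

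Genes of the oxidative stress response that NRF2 (*Nfe2l2*) controls were mostly higher in culture. Of 12 tested genes, 9 rose, against 33.8% of all probes, and 1 fell, with a median of 0.98, among them *Srxn1* (2.68), *Nqo1* (2.00) and *Nfe2l2* itself (1.58), while the partner gene *Mafg* fell by 1.1005. *Slc7a11*, counted among the 9, had passed the detection filter through the cultured arrays alone. *Fth1* and *Hmox1* are known NRF2 targets as well, and of these 2 *Fth1* alone was called with quantile normalization. Under scaling to the 75th percentile the list's counts were the same, 9 and 1.

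The other macrophage genes split in culture, as *Adgre1* and *Spic* did. Of 16 tested, 8 rose and 7 fell, and their summed signal was 90432 and 83216 in culture against 22316 and 22380 in fresh WT stroma. The falls were fewer under other scalings, 5 at the 75th percentile and 4 with no normalization, with 8 rises in each. Complement genes *C1qb* (3.78) and *C1qc* (3.77) and the lysozyme gene *Lyz2* (3.22) led the rise. *Nr1h3*, the gene of the nuclear receptor LXRα (-2.83), *Fcna* (-2.60) and the adhesion gene *Vcam1* (-2.24), which red pulp macrophages carry in mice but endothelium also does, led the fall. *Treml4*, another gene of red pulp macrophages, was at least 2.29-fold lower. In the same list *Mrc1* rose by 2.78, and *Pparg* was not called (-0.060, adjusted p = 0.825). Of 5 marginal zone macrophage genes 3 fell and none rose, *Timd4* by at least 4.83-fold, *Marco* by at least 3.35-fold and *Cd209b* by at least 2.16-fold.

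Between the genotypes, 12.5% of all probes were called. *Lcn2* (1.67) and *Ltf* (1.11) were the called iron genes among 15, both higher in LTβR-KO stroma, and both are products of neutrophil granules. Among 15 haem genes, haptoglobin (*Hp*, 1.98) and *Uros* (0.60) were higher and *Alas1* (-0.72) and *Bach1*, the haem-sensing repressor (-0.71), were lower. Of 12 NRF2 response genes, *Osgin1* alone was called (-0.65). Of 16 macrophage genes 2 were higher, *Mrc1* (0.70) and *C1qb* (0.67), and 4 lower, led by *Nr1h3* (-0.88), *Lyz2* (-0.80) and *Mertk* (-0.66). The marginal zone list stood lower, with 3 of 5 tested genes called, *Siglec1* (-2.45), *Timd4* (-1.97) and *Cd209b* (at least 2.32-fold), and 3 were called lower under each of the 5 normalizations plotted above for culture. Other counts were less stable. With scaling to the 75th percentile, no macrophage gene was higher, 4 were lower, 1 haem gene was called in each direction, no NRF2 response gene was called, and 3 erythroid genes were higher in place of 6.

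Between fresh WT stroma and splenocytes, where 24.2% of all probes were higher and 31.6% lower, the lists gave the following counts. Of 15 iron genes 4 were higher in stroma, led by *Tfr2* (1.003) and *Slc25a28* (0.97), and 4 lower, led by *Lcn2* (-2.67), *Pcbp1* (-1.87) and *Ireb2* (-0.73), one of the iron-responsive RNA-binding proteins. Of 15 haem genes 5 were higher, led by *Alas1* (1.87), *Lrp1* (1.72), a receptor for haem bound to haemopexin, and *Bach1* (1.48), and 4 lower, led by *Fech* (-2.35) and *Hp* (-0.92). Of 12 NRF2 response genes 3 were higher, led by *Mafg* (1.92), and 3 lower, led by *Gclm* (-1.21). Of 16 macrophage genes 5 were higher, led by *Mertk* (2.24), *Axl* (1.81) and *Ctsd* (1.36), and 4 lower, led by *Treml4* (-1.27). *Mertk* and *Axl* encode receptors for dying cells. Of 5 marginal zone macrophage genes 4 were higher in stroma, led by *Siglec1* (2.71), *Timd4* (2.07) and *Marco* (1.20). *Cd209a* was called lower, by at least 1.11-fold, but it had passed the detection filter through the splenocyte arrays alone. Under the other normalizations plotted above for culture, no gene of this list was called lower in stroma.

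The genes whose pattern was most like that of a member were found by Pearson's r of log2 signal over the 8 arrays, which share normalization and fall into 4 groups. For *Spic* they were *Gstt2* (r = 0.991), *Tnfrsf17* (0.988) and *Slpi* (0.984). For *Slc40a1* they were *Cdk10* (0.998), *Krba1* (0.996) and *Zmym3* (0.995), and for *Fth1* they were *Mvk* (0.998), *Ntpcr* (0.998) and *Mvd* (0.997). For *Trf* they were *Dcaf10* (0.996), *Lancl2* (0.995) and *Tm7sf3* (0.994), and for the first *Adgre1* probe *Mt1* (0.996), *Aoah* (0.996) and *Tbxas1* (0.995). None of these 15 genes is a member of the pathway lists above. For *Tfrc* the nearest was *H2-T22* (0.986), for *Blvrb* *Sf3a1* (0.974), for the brightest *Slc11a1* probe *Rab14* (0.972) and for *Hmox1* *Gmppb* (0.851). The lower value for *Hmox1* goes with arrays that differ within a sample type as much as between types.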

How the data were processed

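RNA of 8 samples was hybridised to Illumina mouse bead arrays and read with GenomeStudio. The authors deposited a linear bead intensity per probe and array, not normalized, with a detection p-value against negative controls. A second table deposited by the authors, of background-subtracted intensity after cubic-spline normalization, served as an alternative. Tests used limma 3.58.1 (statmod 1.5.0 for blocks) under R 4.3.3, and Python with matplotlib drew the figures. Bead signals were corrected by normexp with moments inferred from the detection p-values, offset by 16, quantile-normalized and log2-transformed (neqc). A probe entered the test if any group had it detected (p under 0.05) on each of its 2 arrays. The 12389 that did were tested with lmFit and eBayes over all 8 arrays (4 residual and 6.22 prior degrees of freedom), with Benjamini-Hochberg adjustment over those probes. The fit was tested on simulated data.

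Members were all probes annotated to the listed symbols, which were matched to RefSeq genes by gene ID. Gene lists came from general knowledge of the tissue, and members and lists were chosen with earlier results of these data known. A gene with several probes stood by its brightest tested probe in lists. Named list genes were up to 3 called genes with the largest rise and up to 3 with the largest fall, in each of 3 comparisons. *Ftl1*, and in culture *Treml4*, *Mrc1* and *Pparg*, all outside that rule, were named after their values were seen. Named alike genes were the 3 with the highest r. A fold against an undetected group was counted against the lowest signal of a detected probe on each array and is given as a lower bound. Alternatives covered background, normalization, filter, samples in the fit, variance model, a replicate block and leaving out each array. A fit without normalization was added after seeing the data. The number of arrays limits the precision. The files name no genome build, so probe positions are not given.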

Additional observations from a re-analysis of the deposited data

How the results depend on the processing

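The total count of called members moved by more than 1.5 times once, between the genotypes without LTβR-KO replicate 1 (3 against 0). For LTβR-KO stroma against splenocytes the total was 8 in place of 9 at the 75th percentile, but the higher calls went from 4 to 1 and the lower from 5 to 7, and with no normalization 0 were higher and 7 lower. With each array left out in turn the counts ran from 0 to 3 between the genotypes, from 6 to 8 for fresh WT stroma and from 8 to 9 for LTβR-KO stroma against splenocytes, from 8 to 9 for cultured against fresh WT stroma, from 8 to 10 against LTβR-KO stroma, and stayed at 9 against splenocytes. Replicate numbers were not given as pairs, and same-numbered arrays deviated together with r from -0.142 to 0.286. The replicate block left the counts of called members at 0, 8, 9, 9, 9 and 9.

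Calls over all probes between the genotypes fell from 1547 to 753 with the compared groups alone in the fit, to 1019 with scaling to the 75th percentile, to 713 without fresh WT replicate 1, to 960 without LTβR-KO replicate 2, and to 888 with no normalization. Without normalization 76 were higher and 812 lower, against 658 and 889.

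Differences between cultured and fresh WT stroma changed sign as follows, and the cause was not tested. The brightest *Slc11a1* probe stood at 0.17 with cyclic loess, 0.79 at the 75th percentile and 1.18 with no normalization, and ranged from -0.32 (without fresh WT replicate 1) to 0.16 (without fresh WT replicate 2) with an array left out. *Tfrc* stood at 0.40 at the 75th percentile and 0.79 with no normalization, and ranged from -0.56 (without cultured replicate 1) to 0.11 (without cultured replicate 2). *Hmox1* ranged from -0.38 (without cultured replicate 2) to 0.499 (without cultured replicate 1). Without normalization all probes shifted by a median of 0.34 in this comparison, and relative to it *Hmox1* was 0.99, *Tfrc* 0.45, *Slc40a1* -0.80 and *Fth1* 4.09. *Slc40a1* lost its call there (adjusted p = 0.0612) and, in fresh WT stroma against splenocytes, likewise (adjusted p = 0.113).

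Between fresh WT stroma and splenocytes, *Tfrc* turned to -0.15 at the 75th percentile and -0.26 with no normalization, and ranged from -0.19 (without splenocyte replicate 1) to 0.35 (without splenocyte replicate 2). *Hmox1* ranged from -0.42 (without fresh WT replicate 2) to 0.19 (without fresh WT replicate 1), and the first *Adgre1* probe turned to -0.047 with no normalization. Between the genotypes, leaving out an array gave -0.53 to 0.078 for *Hmox1*, -0.44 to 0.041 for the brightest *Slc11a1* probe, -0.14 to 0.053 for its probe 2 and -0.39 to 0.21 for *Trf*. None of the values that turned in these comparisons or in culture against fresh WT stroma had been called with quantile normalization. Single probes were not followed under the alternatives in the other comparisons. There, *Tfrc* was called lower in culture than in LTβR-KO stroma, yet its bead signal was higher (1788 and 1300 against 1037 and 1037). *Slc40a1* and the first *Adgre1* probe, called higher in LTβR-KO stroma than in splenocytes, overlapped between these types in bead signal. Among 18 alternatives, *Fth1* in culture ranged from 3.26 to 4.06, *Trf* from 2.50 to 3.32, the first *Adgre1* probe from 2.29 to 3.07 and *Spic* from -1.93 to -0.86, all called.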
